A study of Mus musculus with 6 samples.

Results

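Colony-stimulating factors are secreted proteins that drive the growth, survival and activation of myeloid cells, and 6 of their genes were examined here, out of 54532 in the deposited count table. They are the ligand genes Csf1, Csf2 and Csf3 and the receptor genes Csf2ra, Csf2rb and Csf3r, taken by gene name. The family was chosen by measured values: Csf3 read higher in both libraries of cells on a zinc alloy with manganese and lithium, and in 1 library from an alloy with manganese alone, than in both libraries from zinc without either. The levels of Csf3 are therefore given as a description, and no test is used to support them. Csf1, Csf2, Csf2ra, Csf2rb and Csf3r entered by name.

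Expression was measured in RAW 264.7 cells, a mouse macrophage line that came from a tumour induced by a leukaemia virus. The cells were seeded on zinc-based metal with a coat of calcium phosphate (CaP) and kept there for 3 days before RNA with a poly(A) tail was sequenced. The 3 groups of 2 libraries each are named for the metal: CaP Zn, CaP Zn0.8Mn with added manganese, and CaP Zn0.8Mn0.1Li with added manganese and lithium. They are called plain zinc, the manganese alloy and the lithium alloy from here on. Every group carries the calcium phosphate coating and the zinc. All groups used here were grown on metal, a single tumour-derived line stands for the macrophage, and the labels do not say whether libraries of the same metal are separate cultures, so that p-values measure the spread between these libraries only, which may be technical.

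Macrophage colony-stimulating factor (CSF1) supports the survival of macrophages through a receptor tyrosine kinase, which is not analysed here. Granulocyte-macrophage colony-stimulating factor (GM-CSF, encoded by Csf2) binds an alpha chain encoded by Csf2ra, and the complex signals through a beta chain encoded by Csf2rb, which also serves interleukins 3 and 5. Granulocyte colony-stimulating factor (G-CSF, encoded by Csf3) acts on neutrophils and their precursors through the single-chain receptor encoded by Csf3r. Activated macrophages are a known source of G-CSF, whose messenger RNA is short-lived: AU-rich elements in the 3′ untranslated region (UTR) of such cytokine messengers are bound by decay factors such as tristetraprolin.

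The AU-rich stretches are shown because the 3 ligand genes hold them and the 3 receptor genes do not, a property the choice of genes did not use. For each gene the 30 bases of the 3′ UTR that hold the most copies of ATTTA were taken from the GENCODE M21 transcript of longest coding sequence on build GRCm38, read on the coding strand, with each ATTTA in capitals.
Csf3, chr11:98702984-98703013, plus strand: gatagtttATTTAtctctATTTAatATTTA
Csf2, chr11:54247329-54247358, minus strand: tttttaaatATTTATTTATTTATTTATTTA
Csf1, chr3:107741109-107741138, minus strand: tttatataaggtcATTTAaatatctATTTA

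The whole 3′ UTR of Csf3, 669 bases long, held 6 copies of ATTTA. Among 2364 genes whose 3′ UTR is within 20% of that length, 1.61% held as many, while 60.4% held at least 1. The 317 bases of the Csf2 3′ UTR held 9 copies. Of 1857 genes of like length 0.0539% held at least as many, which is Csf2 itself. Each gene was counted in its own set. Csf1, with 4 copies in 2111 bases, was ordinary by this count, since 49.5% of 2473 genes of like length held as many. Csf2ra, Csf2rb and Csf3r held 0 copies. At least 1 copy was held by 57.3% of genes of like length for Csf2ra and for Csf3r. That share was 89.2% for Csf2rb and 92.3% for Csf1. Copies that overlap were each counted, and only the coding strand was read. A match of letters is a description and not a site of decay.

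For the receptor genes the letters shown lie at the other end. Promoters were taken from RefSeq (build GRCm38.p6), from 250 bases before to 50 bases after the gene start given there. Of the 6 genes, 4 have an entry, and Csf3 and Csf2rb do not. The RefSeq start can differ from the deposited one. The Csf3r window holds the deposited start, 126024550. The Csf2 window, 54249850 to 54250149, lies wholly upstream of the deposited Csf2 start at 54249667. The entries of Csf2ra and Csf3r are printed because these receptor genes differed in opposite directions in 1 library, described further on. Capitals mark GAGGAA, the core bound by PU.1, the macrophage transcription factor encoded by Spi1.
Csf2ra, chr19:61228369-61228668, minus strand: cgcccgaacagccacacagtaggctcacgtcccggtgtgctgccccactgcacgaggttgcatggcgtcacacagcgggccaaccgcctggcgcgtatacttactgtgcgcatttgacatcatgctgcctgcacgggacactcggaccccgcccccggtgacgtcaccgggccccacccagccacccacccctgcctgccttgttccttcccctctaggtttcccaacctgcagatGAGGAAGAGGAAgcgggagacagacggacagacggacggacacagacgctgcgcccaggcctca
Csf3r, chr4:126024409-126024708, plus strand: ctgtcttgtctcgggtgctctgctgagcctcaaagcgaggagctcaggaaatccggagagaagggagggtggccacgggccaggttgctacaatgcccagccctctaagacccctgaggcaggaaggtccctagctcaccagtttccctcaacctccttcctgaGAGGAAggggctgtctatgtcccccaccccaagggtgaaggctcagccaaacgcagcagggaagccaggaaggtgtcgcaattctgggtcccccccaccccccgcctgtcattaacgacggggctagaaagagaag

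The Csf2ra promoter held 2 copies of GAGGAA side by side, starting 14 and 8 bases before its RefSeq start. The Csf3r promoter held 1 copy that starts 86 bases before its RefSeq start. By the deposited positions that Csf3r copy lies inside the gene. Csf1 and Csf2 held none in this window, which for Csf2 does not reach the deposited gene start. Both strands were searched, and 28.3% of 32851 promoters hold at least 1 copy. An AP-1 motif (TGANTCA), present in 7.81% of promoters, was found in none of the 4, and a C/EBP motif (TTGCNNAA), present in 10.8%, was found in Csf2 alone.

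Library totals ran from 14944070 to 17709290 counts. In CPM, counts scaled to library size with TMM factors of 0.973 to 1.05, a floor of 3 counts lay at 0.161 to 0.198. Intervals and floors cover counting error only. A single library, manganese-alloy replicate 1, differed widely from the rest over all genes: mitochondrial genes took 7.88% of its counts and 1.82% to 2.15% elsewhere, and of 13156 genes with enough counts to test, 15.4% were over 2-fold above the mean of the other libraries and 18.2% over 2-fold below. Results that rest on it are given with and without it. Of 10 macrophage markers, 9 had enough counts to test, which fits the label. Among them were Lyz2 at 5850 to 14500 CPM, Cd68 at 387 to 577 and Spi1 at 203 to 241. Aif1 was low, at 6.27 to 9.88 CPM, and Mertk, at 0 to 0.923 CPM, was not tested. Of lists of 3 to 5 markers each, those of epithelial cells were at 0 in all libraries, and summed levels were at most 0.066 CPM for B cells, 0.161 for mast cells, 0.305 for endothelial cells and 6.01 for T cells. Of 9 neutrophil markers, Mpo, Ngp, Ltf and S100a9 were at 0 everywhere and the whole list summed to 0.264 to 2.29 CPM. Markers of fibroblasts and osteoblasts summed to 7.45 CPM in manganese-alloy replicate 1 and 13.6 to 17.1 elsewhere, with Col1a2 and Pdgfra at 0. Osteoclast markers, which include Mmp9, summed to 82.8 CPM there and 140 to 252 elsewhere. Neither list's part in the results was tested.

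Csf3 was the ligand that these cells made in measurable amounts. It is a protein-coding gene on chromosome 11 (ENSMUSG00000038067, 98701263 to 98703629, plus strand, GRCm38) and shares no stretch of 50 bases with another annotated transcript. On plain zinc it read 5.32 and 5.43 CPM, from 99 and 85 counts. On the lithium alloy it read 11.5 and 15.5 CPM, from 191 and 253 counts. On the manganese alloy it read 0.198 CPM in replicate 1, from 3 counts, and 11.8 CPM in replicate 2, from 183 counts. The 2 lithium-alloy libraries and replicate 2 of the manganese alloy thus lay above both plain zinc libraries, and replicate 1 of the manganese alloy lay far below all the others.

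Group means of Csf3 were 5.37 ± 0.0808 CPM on plain zinc, 6.01 ± 8.22 on the manganese alloy and 13.5 ± 2.78 on the lithium alloy (SD, n = 2 each). The lithium alloy stood 2.51-fold above plain zinc, a log2 fold change of 1.33 with an SE of 1.31 in the edgeR fit to all 6 libraries and of 1.32 with an SE of 0.20 without manganese-alloy replicate 1. For the manganese alloy against plain zinc the log2 fold change was 0.16 (SE 1.31) with that library and 1.14 (SE 0.24) without it. The lithium alloy and the manganese alloy differed by 1.16 (SE 1.31) with it and 0.19 (SE 0.23) without it. Libraries above both plain zinc libraries in this pattern are common: 10.7% of the 13156 tested genes had both lithium-alloy libraries and manganese-alloy replicate 2 above both plain zinc libraries, so that the pattern, which chose the family, says nothing by itself about Csf3.

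**Figure D1:**
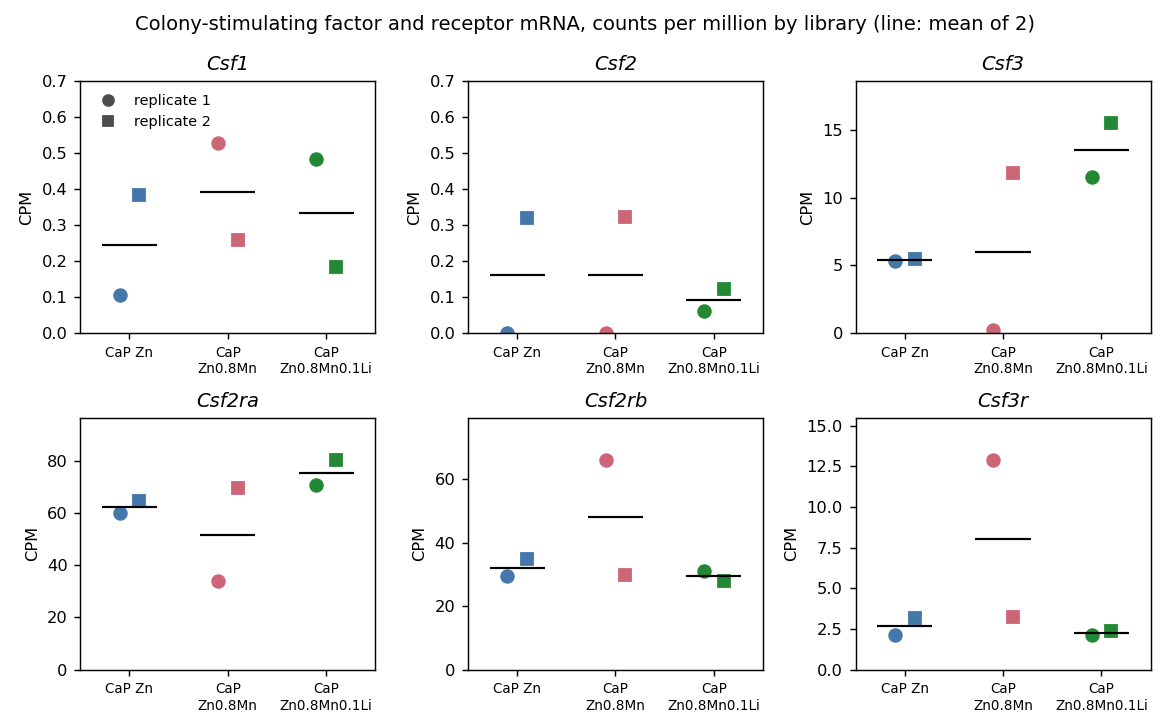
CPM (y axis, linear from 0, a different scale in each panel) of the 6 genes on the 3 metals (x axis). Circles are replicate 1, squares replicate 2 and lines the mean of the 2 libraries. Csf3 lies at 5.32 and 5.43 CPM on plain zinc and at 11.5 and 15.5 on the lithium alloy, while manganese-alloy replicate 1 sits apart from the other libraries for Csf3, Csf2ra, Csf2rb and Csf3r.

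The other ligand genes were near or under the floor. Csf1 (ENSMUSG00000014599, chromosome 3, 107741048 to 107760469, minus strand) had 2 and 6 counts on plain zinc, 8 and 4 on the manganese alloy and 8 and 3 on the lithium alloy. These amount to 0.107 to 0.528 CPM, and the groups overlap. Csf2 (ENSMUSG00000018916, chromosome 11, 54247271 to 54249667, minus strand) had 0 and 5 counts on plain zinc, 0 and 5 on the manganese alloy and 1 and 2 on the lithium alloy. By the floor of 3 counts, its 0 counts allow a level of up to 0.161 CPM in plain zinc replicate 1 and 0.198 CPM in manganese-alloy replicate 1. Differences between metals were not detectable for these genes at this depth, and neither passed the filter on low counts. On Csf2 lies an antisense gene, Gm12223, with 0 counts in every library.

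Of the receptor genes, Csf2ra was the highest. This GM-CSF alpha chain gene (ENSMUSG00000059326, chromosome 19, 61224402 to 61228418, minus strand) read 59.9 and 64.5 CPM on plain zinc, 34.0 and 69.4 on the manganese alloy and 70.5 and 80.3 on the lithium alloy. Both lithium-alloy libraries lay above the other 4. The difference from plain zinc was small, 75.4 ± 6.94 against 62.2 ± 3.25 CPM (SD, n = 2 each), a log2 fold change of 0.28 (SE 0.35; edgeR adjusted p = 1.00). Without manganese-alloy replicate 1 the log2 fold change was again 0.28, with an SE of 0.09 and an edgeR adjusted p of 0.838. Against the manganese alloy the lithium alloy differed by 0.54 (SE 0.35; edgeR adjusted p = 0.680), and by 0.12 (SE 0.12) without replicate 1 of that group.

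Csf2rb, the shared beta chain gene (ENSMUSG00000071713, chromosome 15, 78325752 to 78353847, plus strand), read 29.6 and 34.8 CPM on plain zinc, 66.2 and 29.9 on the manganese alloy and 31.1 and 27.9 on the lithium alloy. Only manganese-alloy replicate 1 left the range of 27.9 to 34.8 CPM. The log2 fold change of the manganese alloy over plain zinc was 0.58 (SE 0.39; edgeR adjusted p = 0.773) and turned to -0.11 (SE 0.15) without that library. Mice carry a neighbouring copy, Csf2rb2, whose protein serves interleukin 3 and not GM-CSF, and 12.3% of the 50-base stretches of Csf2rb transcripts recur in transcripts of other genes, Csf2rb2 among them. The split of reads between the copies is therefore uncertain. Csf2rb2 read 3.49 and 4.03 CPM on plain zinc, 16.6 and 3.94 on the manganese alloy and 3.20 and 4.34 on the lithium alloy, so the same library was the high one for both copies. Csf2rb was 6.44 to 9.72 times Csf2rb2 in CPM in the other 5 libraries and 4.0 times in that one.

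Csf3r, the receptor gene for G-CSF (ENSMUSG00000028859, chromosome 4, 126024550 to 126044440, plus strand), was low, with 35 to 50 counts in 5 libraries. It read 2.15 and 3.20 CPM on plain zinc, 12.9 and 3.23 on the manganese alloy and 2.11 and 2.38 on the lithium alloy. Again manganese-alloy replicate 1 was the high library, and both libraries of that group lay above plain zinc only because 3.23 is just over 3.20. The log2 fold change of the manganese alloy over plain zinc was 1.59 (SE 0.69; edgeR adjusted p = 0.773), and 0.28 (SE 0.38) without that library. For the lithium alloy against the manganese alloy it was -1.84 (SE 0.70; edgeR adjusted p = 0.680), and -0.52 (SE 0.38) without that library. Of the 50-base stretches of Csf3r transcripts, 10.5% recur in transcripts of many other genes.

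Across the 3 comparisons none of Csf2ra, Csf2rb and Csf3r passed the threshold of an adjusted p under 0.05 in edgeR's quasi-likelihood test, and 0% of the 13156 genes tested did in any comparison. Adjusted p-values of these receptor genes in edgeR were 0.773 to 0.779 for the manganese alloy against plain zinc, 1.00 for the lithium alloy against plain zinc, and 0.680 for the lithium alloy against the manganese alloy. At an unadjusted p under 0.05 edgeR had 207, 29 and 316 genes in these comparisons, among them Csf3r in the last. DESeq2 called 1, 0 and 3 genes and limma-voom 0 in each, none of them a member of the family. A p that misses the threshold does not show that the metals act alike on these genes. The comparisons with plain zinc share its 2 libraries, and each metal enters 2 of the 3 comparisons.

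Without manganese-alloy replicate 1, 13627 genes were tested and edgeR called 2 (0.0147%) for the manganese alloy against plain zinc, 1 (0.00734%) for the lithium alloy against plain zinc and 4 (0.0294%) for the lithium alloy against the manganese alloy. The first were Gm10123 and Rpl7a-ps5, and the last Entpd4b, Gm10123, Gm10800 and mt-Rnr2, all named after their values were seen. The 1 gene of the lithium alloy against plain zinc was Csf3, whose values in that contrast chose the family, so nothing is read from it. With the 13156 genes of the 6-library filter the same fit called 0 genes in that comparison. Csf2ra, Csf2rb and Csf3r were not called in any of these fits.

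Groups whose libraries do not overlap were frequent among all genes, which sets the frame for the receptor genes. In the lithium alloy against plain zinc, 16.7% of tested genes did not overlap with the lithium alloy higher and 16.8% with it lower; Csf2ra was among the former, and Csf2rb and Csf3r overlapped. In the manganese alloy against plain zinc the shares were 12.5% higher and 12.8% lower, with Csf3r among the former. In the lithium alloy against the manganese alloy they were 17.1% higher, with Csf2ra, and 17.5% lower, with Csf3r. So 1 or 2 of the 3 tested receptor genes did not overlap in each comparison, in counts too small to read against these shares.

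**Figure D2:**
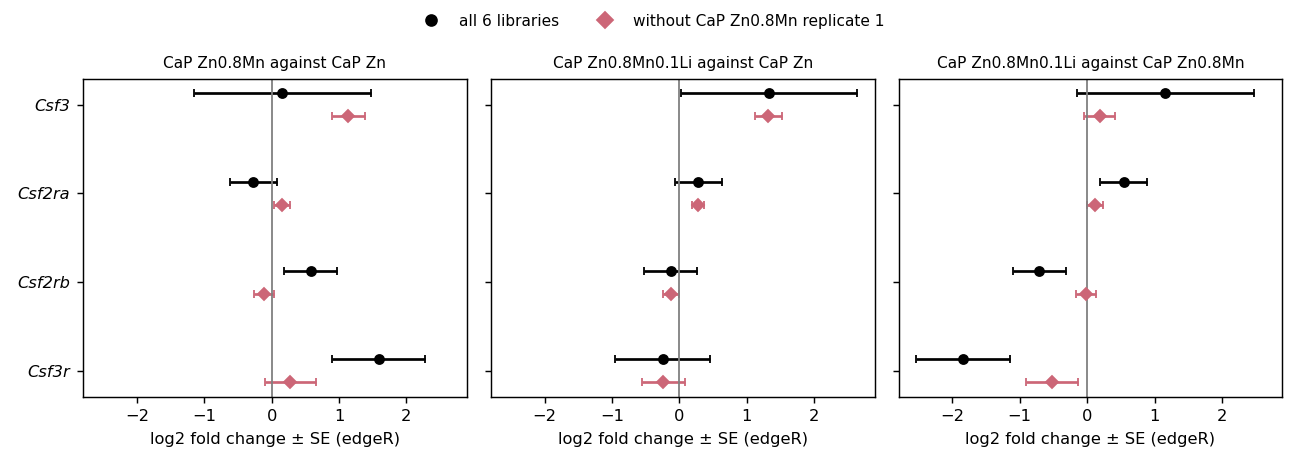
Log2 fold changes with their standard errors from the edgeR fits (x axis, the first-named metal over the second) of the 4 genes with enough counts (y axis), one panel for each comparison. Circles are fits to all 6 libraries and diamonds fits without manganese-alloy replicate 1. For the lithium alloy against plain zinc the circle and diamond of Csf3 lie at 1.33 and 1.32, with standard errors of 1.31 and 0.20, while Csf2ra and Csf2rb change sign between the fits for the manganese alloy against plain zinc.

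In manganese-alloy replicate 1 the members differed from the other libraries in both directions. Relative to the pooled other 5 libraries, Csf3 was at 0.0202 times their level (95% exact counting interval 0.00415 to 0.0592, from 3 counts against 811), and Csf2ra at 0.495 times (0.452 to 0.542). Csf3r stood at 4.97 times (4.07 to 6.06), Csf2rb2 at 4.37 times (3.69 to 5.18) and Csf2rb at 2.16 times (2.01 to 2.33). Csf1, with 8 counts against 23, was at 1.90 times, with an interval of 0.734 to 4.39 that spans 1. Csf2 had 0 counts against 13, and its exact two-sided interval, which is wider than the floor of 3 counts, reaches 1.79 times, so that no difference was detectable at this depth. Set beside the shares of 15.4% and 18.2% of all genes that were over 2-fold higher or lower in it, the family held Csf3r and Csf2rb on one side and Csf3 and Csf2ra on the other. These are values of 1 library, and they have no replicate check. Mitochondrial counts of 7.88% move with them, and their part in these values was not tested.

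**Figure D3:**
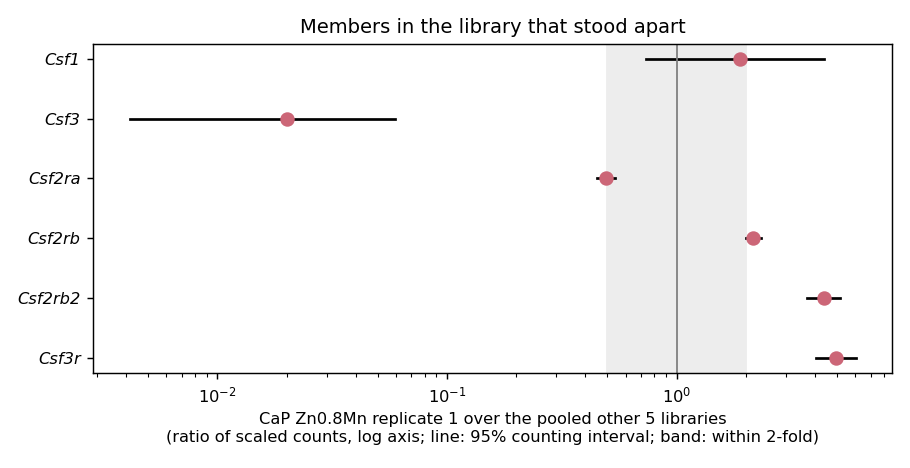
Ratio of scaled counts in manganese-alloy replicate 1 to the pooled other 5 libraries (x axis, log scale) for 5 members and Csf2rb2, the copy of Csf2rb (y axis). Lines are 95% counting intervals and the grey band is a difference within 2-fold. Csf3 lies at 0.0202 and Csf3r at 4.97, on opposite sides of the line at 1.

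Levels of different genes can be compared only per length, in FPKM (fragments per kilobase of gene, scaled to library size), as the authors deposited them. Outside manganese-alloy replicate 1, Csf2ra had the highest level, 32.1 to 43.1 FPKM. Csf3 followed at 3.73 to 10.8 and Csf2rb at 3.80 to 4.76, then Csf3r at 0.582 to 0.893. Csf2 lay at 0 to 0.403 and Csf1 at 0.0201 to 0.0909. Csf3 and Csf2rb did not separate on plain zinc, where their level ratio was 0.924 and 0.803. Csf3 was 1.91 to 2.85 times Csf2rb in the lithium-alloy libraries and 2.04 times in manganese-alloy replicate 2. These are the libraries whose higher Csf3 chose the family, so nothing is read from that rise. Csf2 and Csf1 do not differ beyond their spread.

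In manganese-alloy replicate 1 the order was another: Csf2ra read 18.0 FPKM, Csf2rb 8.88, Csf3r 3.48 and Csf3 0.137. The ratio of the GM-CSF receptor's alpha to beta chain messenger level was 2.02 there and 7.29 to 11.3 in the other libraries. The ratio of the G-CSF ligand to its receptor was 0.0393 there, against 6.32 and 4.34 on plain zinc, 9.35 in manganese-alloy replicate 2, and 13.9 and 16.6 on the lithium alloy. Outside that library the ligand messenger exceeded that of its receptor on every metal. The rise of the ligand-to-receptor ratio above plain zinc rests on the Csf3 values that chose the family, so nothing is read from it. The gene lengths behind these ratios are those in the deposited tables, 7277 bases for Csf2rb against 1849 for Csf2ra, so the ratios depend on them. In bulk RNA, fewer cells making a messenger and less of it per cell cannot be told apart.

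**Figure D4:**
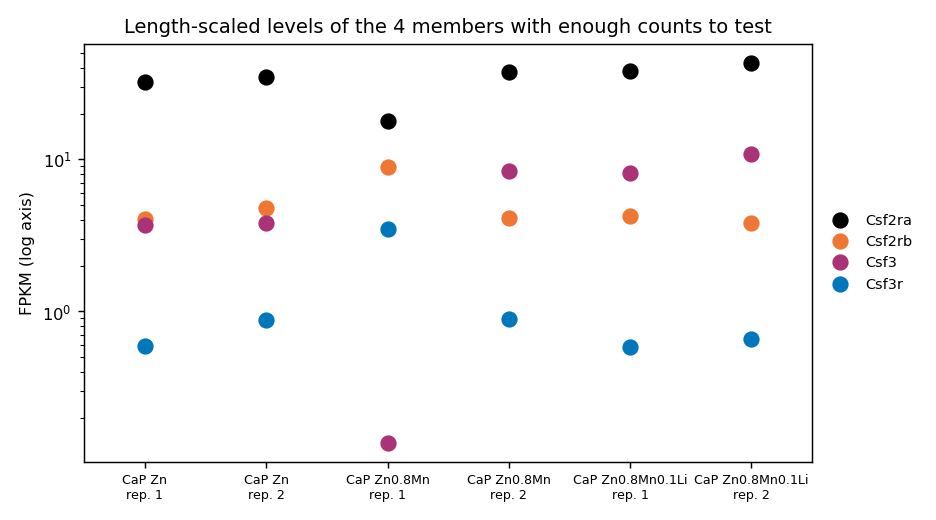
Deposited FPKM (y axis, log scale) of the 4 members with enough counts to test, in each of the 6 libraries (x axis). Csf2ra is the highest point in every library, and Csf3 stands at 0.137 in manganese-alloy replicate 1, against 3.73 to 10.8 elsewhere, while Csf3r stands at 3.48 there.

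Among the genes around this family, relatives of the receptors gave no called gene. Of 12, 4 had enough counts, and the alpha chains that pair with the beta chain for interleukins 3 and 5 (Il3ra, Il5ra) were at 0 in every library, as was Il3. The second ligand of the CSF1 receptor, Il34, had at most 0.122 CPM. The signalling subunit gene Il6st read 95.1 and 110 CPM on plain zinc, 228 and 91.3 on the manganese alloy and 103 and 96.0 on the lithium alloy. Il6ra read 56.2 and 58.7, 122 and 54.6, and 51.6 and 53.8 CPM on the same metals, and Il2rg, the common gamma chain, read 29.0 and 26.6, 21.5 and 39.6, and 37.3 and 38.1.

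Genes that carry the signal onward from these receptors (kinases, adaptors, STAT factors and phosphatases) were all measured, 23 of 23, and none was called in any comparison. For the lithium alloy against plain zinc, 6 were higher and 17 lower with a median log2 fold change of -0.04, beside 50% of all genes higher and a median of 0.000. In manganese-alloy replicate 1 none of the 23 was over 2-fold higher or lower, beside 15.4% and 18.2% of all genes. Ptpn6, the phosphatase SHP-1 that restrains cytokine receptors, read 499 and 430 CPM on plain zinc, 426 and 428 on the manganese alloy and 392 and 400 on the lithium alloy. Cbl, a ubiquitin ligase of these receptors, read 348 CPM in manganese-alloy replicate 1 and 180 to 209 elsewhere, and the adaptor gene Grb2 read 122 and 188 to 207.

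Genes known to respond to colony-stimulating factors were likewise without a call in 16 tested of 18. Their median log2 fold change was 0.11 for the lithium alloy against plain zinc (10 higher, 6 lower) and -0.34 for the manganese alloy against plain zinc (4 higher, 12 lower), the latter turning to 0.07 without manganese-alloy replicate 1. In that library 11 of the 16 were over 2-fold lower and 1 over 2-fold higher, beside 18.2% and 15.4% of all genes. Bcl2l1, the survival gene for Bcl-xL, read 45.7 CPM there and 115 to 144 elsewhere. Mcl1, another survival gene, read 716 there and 706 to 879 elsewhere, and the cyclin gene Ccnd1 read 317 and 229 to 259.

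The transcription factors that act on colony-stimulating factor genes were tested in 21 of 22 cases, with 0 called. The median was -0.07 for the lithium alloy against plain zinc (8 higher, 13 lower). It was -0.37 for the manganese alloy against plain zinc (5 higher, 16 lower), and -0.06 without manganese-alloy replicate 1. Junb, an AP-1 subunit, read 63.3 CPM in that library and 213 to 285 elsewhere, and the stress-induced Atf3 read 75.1 there and 127 to 207 elsewhere. Spi1, the gene for PU.1, read 203 CPM there and 220 to 241 in the other libraries. The core letters of PU.1 are marked in the promoters of Csf2ra and Csf3r. The part of PU.1 in the levels of these receptor genes was not tested.

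Genes that govern the decay of AU-rich messengers bear on the stretches printed for Csf3 and Csf2. All 12 were tested and 0 called, with a median of 0.00 for the lithium alloy against plain zinc (6 higher, 6 lower) and of -0.23 for the manganese alloy against plain zinc (5 higher, 7 lower; -0.06 without manganese-alloy replicate 1). In that library 6 of the 12 were over 2-fold lower and 1 over 2-fold higher, where all genes had shares of 18.2% and 15.4%. The decay scaffold gene Cnot1 read 504 CPM there and 256 to 293 elsewhere, Rc3h1, which encodes roquin-1, read 134 and 224 to 310, and Zc3h12c, of the regnase family, read 41.2 and 199 to 259. Zfp36, the gene for tristetraprolin, is named outside the rule for this list because it is the factor introduced with these elements: it read 20.1 CPM there and 134 to 188 elsewhere, low in the same library as Csf3.

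Signals that induce Csf3 in macrophages, from cytokines to Toll-like receptors and their adaptors, gave 0 calls in 14 tested of 16. The median log2 fold change was -0.03 for the lithium alloy against plain zinc, with 6 higher and 8 lower, and 0.41 for the manganese alloy against plain zinc, with 11 higher and 3 lower (0.07 without manganese-alloy replicate 1). The Toll-like receptor gene Tlr2 read 235 CPM in that library and 67.6 to 80.1 in the others, Irak1 read 124 and 72.5 to 78.7, and the cytokine gene Tnf, by contrast, 14.0 and 112 to 154. The Csf1 processing genes, 6 tested of 7, held 0 called, with medians of 0.00 and -0.07 against plain zinc for the manganese and the lithium alloy. Adam17, a sheddase, read 374 CPM in manganese-alloy replicate 1 and 135 to 151 elsewhere. Adam10, a related protease gene, read 174 there and 105 to 118 elsewhere, and the convertase gene Furin read 160 and 108 to 126.

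On the side of granulocyte genes, on which G-CSF is known to act, 5 of 17 had enough counts and 0 were called. The medians were 0.87 for the lithium alloy against plain zinc (4 higher, 1 lower) and 0.23 for the manganese alloy against plain zinc (4 higher, 1 lower), or 0.97 (5 higher) without manganese-alloy replicate 1. Their summed level was 45.4 and 70.2 CPM on plain zinc, 16.5 and 136 on the manganese alloy and 119 and 159 on the lithium alloy, most of it from a pair of genes. Lcn2, a siderophore-binding protein of granules that macrophages also make, read 14.8 and 20.2 CPM on plain zinc, 5.61 and 59.7 on the manganese alloy and 41.0 and 72.6 on the lithium alloy. Mmp9, a gelatinase likewise made by both cell types, read 26.5 and 45.9, then 6.66 and 70.4, then 73.5 and 82.6 CPM. Both were lowest in manganese-alloy replicate 1, and the other manganese-containing libraries lay above both plain zinc libraries, which is the pattern of 10.7% of all tested genes. Cebpe, a granulocyte transcription factor, read 2.15 and 1.79, then 3.63 and 2.65, then 1.15 and 1.53 CPM, and the azurophil granule genes Mpo and Ctsg were at 0 in every library.

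Genes linked to GM-CSF in alveolar macrophages and dendritic cells were tested in 6 of 12 cases with 0 called. Their median was 0.47 for the lithium alloy against plain zinc (5 higher, 1 lower) and 0.63 for the manganese alloy against plain zinc (4 higher, 2 lower), or 0.34 without manganese-alloy replicate 1. The lectin gene Clec10a read 5.96 and 7.92 CPM on plain zinc, 15.9 and 8.98 on the manganese alloy and 11.2 and 10.4 on the lithium alloy. Itgax, the gene for CD11c, read 17.5 CPM in manganese-alloy replicate 1 and 1.88 to 5.73 elsewhere. The lipid carrier gene Fabp4 read 0.528 CPM there and 3.83 to 7.64 elsewhere. Macrophage genes that depend on CSF1 gave 0 calls in 14 tested of 15. Their medians were 0.05 for the lithium alloy and 0.16 for the manganese alloy against plain zinc, and 0.25 for the latter without replicate 1. Mpeg1, a pore-forming macrophage protein, read 1300 CPM in manganese-alloy replicate 1 and 187 to 259 elsewhere. Lyz2 and Cd68 went the opposite way, at 5850 CPM there against 9170 to 14500, and at 387 against 461 to 577. Thus the list had no common direction in that library: 5 genes exceeded the mean of the other libraries by more than 2-fold, while 4 fell short of it by as much.

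The neighbours of Csf3 on chromosome 11 spread less across the libraries than Csf3. Of 7, 4 were tested and 0 called, and for the lithium alloy against plain zinc their median was 0.10 (4 higher). Psmd3, a proteasome subunit gene beside Csf3, read 158 and 177 CPM on plain zinc, 103 and 169 on the manganese alloy and 171 and 172 on the lithium alloy. Thra, a thyroid hormone receptor gene, read 34.6 CPM in manganese-alloy replicate 1 and 80.2 to 97.2 elsewhere, and Msl1 read 44.3 and 68.0 to 80.7. Beside Csf2, Il3 and Acsl6 were at 0, and P4ha2 read 1.10 to 4.49 CPM.

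The genes whose pattern lay closest to that of Csf3 were sought among 9765 genes with a mean of at least 5 CPM, by the root mean square difference of log2 CPM after each gene's mean was taken off. Over all 6 libraries these were Id1 (difference 0.39 log2 units, Pearson r = 0.978), Rhov (0.41, r = 0.981), Tmsb10 (0.45, r = 0.973), Gadd45g (0.49, r = 0.965) and Lsm5 (0.49, r = 0.962). All of them share the low reading in manganese-alloy replicate 1, as Id1 shows at 5.91 and 12.1 CPM on plain zinc, 0.462 and 15.6 on the manganese alloy and 17.9 and 15.1 on the lithium alloy. Over the 5 libraries without it the closest were Mmp9 (difference 0.26, r = 0.910), Qpct (0.27, r = 0.902), Itgb7 (0.29, r = 0.920), Klra2 (0.30, r = 0.941) and Gm21399 (0.31, r = 0.991). The lists share 0 genes, so the genes found depend on whether that 1 library is included. Klra2 read 9.24 and 9.84 CPM on plain zinc, 12.4 in manganese-alloy replicate 2 and 15.5 and 18.0 on the lithium alloy. In manganese-alloy replicate 1, Mmp9, Qpct and Klra2 were lower than in every other library, but Itgb7 (25.3 CPM) and Gm21399 (6.4 CPM) were not. All these genes were picked for likeness to Csf3, so the readings by which they were picked follow from that choice. The points behind each r are the same libraries with their depth, and r is a description.

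**Figure D5:**
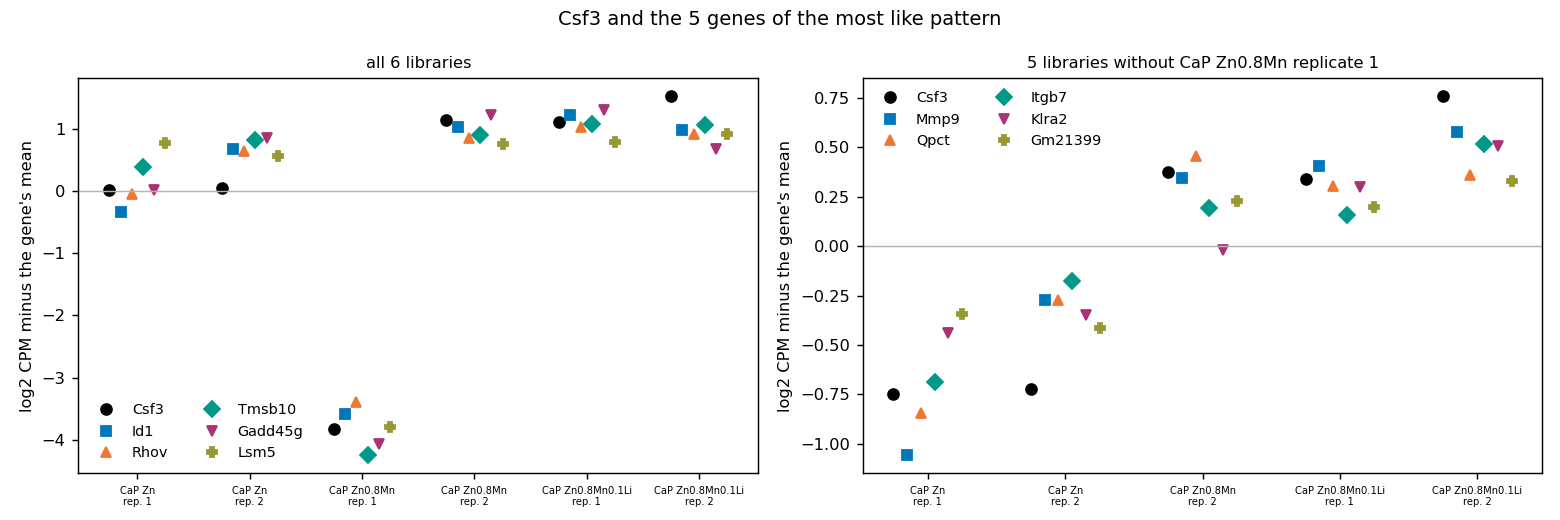
Log2 CPM minus each gene's own mean (y axis) for Csf3 and the 5 genes of closest pattern, by library (x axis), over all 6 libraries on the left and over 5 on the right. On the left every gene is lowest in manganese-alloy replicate 1. On the right the plain zinc libraries lie below 0 for Csf3, Mmp9, Qpct, Itgb7, Klra2 and Gm21399. Both readings follow from picking genes by their likeness to Csf3.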

How the data were processed

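Polyadenylated RNA of 6 RAW 264.7 libraries in 3 groups was sequenced with a TruSeq kit, per the labels' protocols. Groups came from the treatment label and replicate numbers from the titles. The authors deposited whole-number read counts per gene and FPKM values of the same libraries; FPKM here equals counts over gene length, scaled to between 0.976 and 1.06 times the count total. The submitters' processing notes name build mm9, but 98.3% of 54409 matched genes have the start and end of GRCm38 (GENCODE M21), so coordinates are given as GRCm38 positions; of the 6 genes, 5 match exactly and Csf2ra does not. The aligner and counting program were not given in the sources used here, nor was the use of strand. There are 0 columns of other samples.

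Counts were tested with edgeR 4.0.16 in R 4.3.3 (quasi-likelihood, robust, TMM, filterByExpr, group means of all 6 libraries, 3 residual degrees of freedom), two-sided, with Benjamini-Hochberg adjustment over all tested genes. SE is the log2 fold change divided by the square root of F. The script was tested on simulated data. Alternatives were RLE or no scaling factors, DESeq2 1.42.0, limma-voom (limma 3.58.1), other count filters, the replicate block, fewer libraries, and log2(FPKM + 1) or log2(FPKM + 0.1) with genes of mean FPKM at least 1. Libraries of 1 group differed by more than counting noise (chi-square per gene 11.3, 270 and 6.02), so none was treated as a repeat deposit; this does not show separate cultures, and each is a replicate by its label's number. The family, gene lists and tests were chosen with earlier results of these data known. All 6 genes are named, with the 3 members of highest mean CPM in each pathway list and the 5 genes closest to Csf3; Csf2rb2, Il34, Zfp36 and granule genes at 0 were added for their roles, after their values were seen.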

Additional observations from a re-analysis of the deposited data

How the results depend on the processing

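Without a filter on low counts edgeR called 1 gene for the manganese alloy against plain zinc. It also called 1 for the lithium alloy against the manganese alloy. DESeq2, with the filter kept, called 1 and 3 genes in these comparisons. Leaving out 1 library at a time gave 0 to 8197 calls for the manganese alloy against plain zinc, 0 to 1 for the lithium alloy against plain zinc and 0 to 8489 for the lithium alloy against the manganese alloy; the highest counts came without manganese-alloy replicate 2, which leaves the library that stood apart as the lone library of its group, assumed to vary like the others. These counts are out of 14130 tested genes, so that most genes passed. Then Csf2ra (log2 fold change -0.91), Csf2rb (1.00) and Csf3r (2.24) passed for the manganese alloy against plain zinc, as they did for the lithium alloy against the manganese alloy (1.18, -1.13 and -2.48). Settings chosen after seeing the data dropped manganese-alloy replicate 1. With the 6-library filter edgeR then called 2, 0 and 2 genes in the 3 comparisons. Without that library limma-voom called 3, 0 and 3, and DESeq2 5, 12 and 3. None of the called genes was a member. In that DESeq2 fit, however, Csf3, Csf2rb and Csf3r had no adjusted p for the lithium alloy against plain zinc. They could not be called there, so for them the absence of a call is not a negative result.

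The sign of Csf3 for the manganese alloy against plain zinc depended on the setting: from 0.16 it turned to -0.57 with the replicate block, -1.69 with limma-voom, -0.55 with log2(FPKM + 1), -1.45 with log2(FPKM + 0.1) and ranged from -4.75 to 1.14 with 1 library left out. Without manganese-alloy replicate 1, Csf2ra turned to 0.16 in each fit and Csf2rb to -0.11, or -0.10 with limma-voom. For the lithium alloy against plain zinc, Csf3 lay between 1.09 and 1.52 when 1 library was left out. Its positive sign there was set by the choice of the family, so it says nothing about robustness. In the same comparison Csf3r ranged from -0.51 to 0.06, the latter without plain zinc replicate 2. Among all alternative fits of member fold changes, those of Csf3 included, 203 kept direction and side of the threshold and 14 changed sign. The rest newly passed the threshold in the same direction. The 203 include the DESeq2 values without an adjusted p, which were counted as not passing. Every pass came from a fit that left 1 library in a group. Csf3 chose the family, so nothing is read from its fits. Where a setting other than a left-out library changed a result, the cause was not tested. Differences between replicates 1 and 2 correlated at 0.263 between plain zinc and the manganese alloy. They correlated at -0.162 between plain zinc and the lithium alloy, and at -0.095 between the alloys. Those with the manganese alloy hold the library that stood apart, so whether the numbers pair libraries cannot be told. The block gave 0 calls in each comparison. Mean CPM of Csf3 on plain zinc moved from 5.37 to 5.47 with library totals only. Depth limits Csf1 and Csf2, at 0 to 8 counts.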
